A study of Mus musculus with 12 samples.

Results

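The eye field transcription factors described here are 7 genes, Rax, Six3, Six6, Pax6, Lhx2, Otx2 and Nr2e1, taken by name from the 54232 gene IDs counted in each library, and all 7 passed the filter on low counts that left 17721 genes for testing. The eye field is the patch of anterior neural plate from which both eyes arise. Its cells express most of these factors together, and in vertebrates several of them sustain one another's expression while the tissue bulges out as optic vesicles. Rax, Six3, Six6, Pax6, Lhx2 and Otx2 encode homeodomain proteins, and Nr2e1, also called Tlx, encodes an orphan nuclear receptor of forebrain and retinal progenitors.

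RNA was sequenced from mouse eye organoids on day 7 of culture, grown from 1 embryonic stem cell line that carries GFP at 1 Rax allele. In the LDHi+lactate group (4 libraries), organoids received 20 µM GNE-140, an inhibitor of lactate dehydrogenase, for 3 days together with 25 mM sodium L-lactate. The LDHi group (4 libraries) received GNE-140 alone for 3 days, and the control group (4 libraries) received neither. The labels give 12 h of lactate before the inhibitor, whereas the methods describe lactate given in its presence, and the methods name independent experiments without saying which libraries came from which. All groups share the GFP allele, so Rax RNA was read from a background in which 1 allele is altered, and 1 line cannot show how another would respond. Bulk RNA cannot tell fewer eye field cells apart from less RNA per cell, which holds for every value below.

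Library totals were 29255114 to 42489921 counts in LDHi+lactate, 22174002 to 46881759 in LDHi and 25209097 to 48271386 in control organoids. Levels are CPM, reads of a gene on a fixed scale per library, adjusted by TMM, a factor that aligns the bulk of genes between libraries. Rax, the least counted of the 7, held 115 to 1754 reads per library. Replicates 1 and 2 are labelled eye organoid and replicates 3 and 4 retina progenitors. Libraries of the same number deviated together across groups, a pairing read from the data and not stated by the labels or methods. Tests were therefore run both with treatment alone and with the replicate number added as a block. Hypothalamus markers were nearly absent, with 6 of 6 genes averaging under 1 CPM in each group, as were most lens and surface ectoderm markers, with 6 of 8 under 1 CPM in LDHi+lactate, 6 of 8 in LDHi and 5 of 8 in control organoids. Control replicate 4 stood apart in its mesenchyme markers, which summed to 810.3 CPM there, against a median of 262 CPM over the control libraries.

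Of the 7 factors, 6 have a start site in the RefSeq promoter set used here (GRCm38.p6), at 11 starts, and the 250 bases before each start were searched for TAAT or ATTA, the core letters that homeodomains prefer, and for the longer TAATTA and TAATCC with its complement GGATTA. The stretches shown are those of the 3 factors, among these 6, with 1 listed start, and the Otx2 stretch richest in these letters. The 3 span the largest fall, an intermediate fall and the factor that went the other way. Capitals mark TAAT or ATTA on the strand printed, which is the strand of the gene, and overlapping matches were each counted, so that TAATTA counts once as TAAT and once as ATTA.
Six6, chr12:72939632-72939881, + strand: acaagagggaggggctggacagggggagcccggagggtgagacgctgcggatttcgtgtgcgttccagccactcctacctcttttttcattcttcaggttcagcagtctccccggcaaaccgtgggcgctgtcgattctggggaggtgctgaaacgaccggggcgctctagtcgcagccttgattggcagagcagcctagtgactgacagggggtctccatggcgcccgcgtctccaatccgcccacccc
Six3, chr17:85620584-85620833, + strand: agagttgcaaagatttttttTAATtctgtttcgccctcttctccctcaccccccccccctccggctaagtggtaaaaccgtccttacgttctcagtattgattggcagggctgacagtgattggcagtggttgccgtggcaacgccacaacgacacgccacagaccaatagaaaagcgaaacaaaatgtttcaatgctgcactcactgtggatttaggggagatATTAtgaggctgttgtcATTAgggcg
Nr2e1, chr10:42583591-42583840, - strand: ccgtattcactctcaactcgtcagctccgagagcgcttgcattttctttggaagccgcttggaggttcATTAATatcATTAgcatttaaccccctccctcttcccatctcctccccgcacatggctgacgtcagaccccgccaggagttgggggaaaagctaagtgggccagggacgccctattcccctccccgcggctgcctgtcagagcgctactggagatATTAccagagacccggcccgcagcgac
Otx2, chr14:48665110-48665359, - strand: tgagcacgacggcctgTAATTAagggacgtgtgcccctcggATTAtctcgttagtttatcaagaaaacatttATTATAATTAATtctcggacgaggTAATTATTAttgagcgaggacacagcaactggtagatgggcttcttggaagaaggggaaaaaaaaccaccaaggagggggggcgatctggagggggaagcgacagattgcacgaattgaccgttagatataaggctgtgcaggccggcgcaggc

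The Six6 stretch held 0 matches to TAAT or ATTA, the Six3 stretch 3, the Nr2e1 stretch 4 and the Otx2 stretch 10, and 54.9% of all 32851 promoter stretches of that length held at least 1. TAATTA occurred 3 times in the Otx2 stretch printed and once in another Otx2 stretch, and in none of the other 9 stretches of these factors, against 4.84% of all stretches. TAATCC or GGATTA occurred once, in the same Otx2 stretch, against 6.25% of all stretches. These are matches of letters in a short window and say nothing of binding by any factor.

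The fitted response of the 7 factors to the inhibitor varied in size. No difference between 2 factors passed adjustment, in a test that could not settle single pairs. In LDHi organoids Six6, Rax and Six3 fell below control by log2 fold changes of -3.40, -2.03 and -1.22, whereas Otx2, Lhx2 and Pax6 were lower by less than 1 log2 unit each and Nr2e1 was higher, changes that edgeR did not call with treatment alone and called with the replicate block. With lactate added, the mean of each of the 7 factors lay between its LDHi and control means and the libraries overlapped control, but only for Six6, Rax and Six3 did they lie wholly above LDHi. The plot of levels by library shows the 7 factors in order of their fitted change in LDHi.

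**Figure D1:**
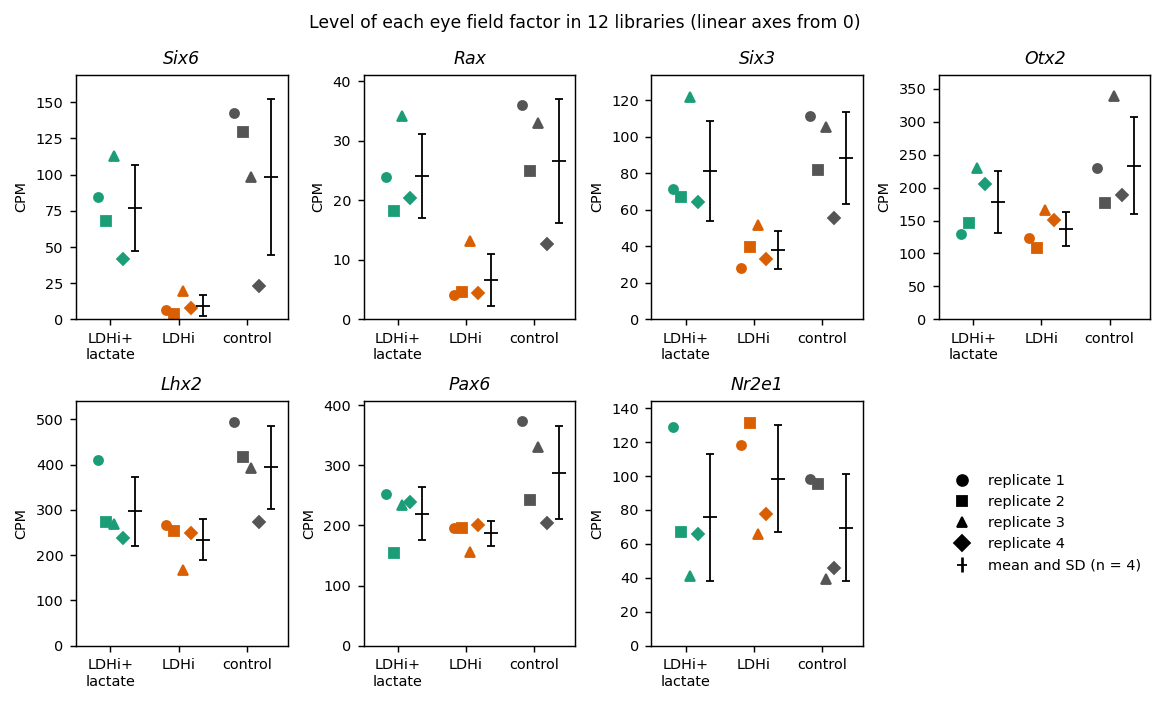
CPM of each factor in LDHi+lactate, LDHi and control libraries (linear vertical axes from 0). Symbols give the replicate number and bars the mean and SD over 4 libraries. Six6 and Six3 in LDHi lie below every control library, Rax overlaps control through 1 library of each group (13.2 CPM in LDHi replicate 3 and 12.7 CPM in control replicate 4), and Nr2e1 is highest in LDHi replicate 2 at 132 CPM.

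Six6 (ENSMUSG00000021099, chromosome 12, 72939892 to 72944899 in mm10) is a homeobox gene needed for the expansion of retinal progenitors and for the pituitary. It had 84.3, 68.3, 113 and 41.4 CPM in LDHi+lactate replicates 1 to 4, 6.80, 3.55, 19.7 and 7.91 CPM in LDHi replicates 1 to 4, and 143, 129.5, 98.2 and 22.8 CPM in control replicates 1 to 4. Every LDHi library was below every control library and every LDHi+lactate library. The mean was 76.6 ± 29.7 CPM in LDHi+lactate, 9.48 ± 7.03 CPM in LDHi and 98.3 ± 53.8 CPM in control organoids (SD, n = 4 each). Six6 fell in LDHi by a log2 fold change of -3.40 ± 0.61 (SE, adjusted p = 0.015) by edgeR's quasi-likelihood test with Benjamini-Hochberg adjustment over the genes tested. Against control libraries of the same number, LDHi held 4.76%, 2.74%, 20.02% and 34.8% of the Six6 level in replicates 1 to 4. The drop was thus deeper in replicates 1 and 2 than in replicates 3 and 4, and the log2 fold change was -4.72 in replicates 1 and 2 and -2.14 in replicates 3 and 4. The difference of 2.58 between these had an unadjusted p of 0.0296 and an adjusted p of 0.890 in edgeR's interaction test, so it did not pass.

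With lactate Six6 was 5.24 to 19.2 times the LDHi level in the 4 replicates. The log2 fold change of LDHi+lactate over LDHi was 3.04 ± 0.60 (SE, adjusted p = 0.481) in edgeR with treatment alone. With the replicate block it was 3.08 ± 0.48 (SE, adjusted p = 0.0248) and passed. LDHi+lactate held 59.0%, 52.7%, 115% and 182% of the same-numbered control level, below control in replicates 1 and 2 and above it in replicates 3 and 4. Control replicate 4 was itself low, at 22.8 CPM against 98.2 to 143 CPM in the other control libraries, and it is also the control library with the most mesenchyme marker RNA. Whether these are related was not tested. Without control replicate 4 the log2 fold change of LDHi over control was -3.73, and without LDHi replicate 3, the highest LDHi library at 19.7 CPM, it was -4.03.

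Rax (ENSMUSG00000024518, chromosome 18, 65928277 to 65939787), the retina and anterior neural fold homeobox gene without which no eye forms in mice, had 23.8, 18.1, 34.1 and 20.4 CPM in LDHi+lactate replicates 1 to 4, 4.15, 4.65, 13.2 and 4.41 CPM in LDHi replicates 1 to 4, and 35.9, 24.9, 33.0 and 12.7 CPM in control replicates 1 to 4. LDHi replicates 1, 2 and 4 were below every control library, and LDHi replicate 3 was above control replicate 4. Rax fell in LDHi by a log2 fold change of -2.03 ± 0.42 (SE, adjusted p = 0.0247) in edgeR. LDHi held 11.6%, 18.7%, 39.9% and 34.7% of the Rax level of the control libraries with the same number, so it was lower in 4 of 4 replicates. The LDHi+lactate libraries all exceeded the LDHi libraries, with a log2 fold change over LDHi of 1.88 ± 0.42 (SE, adjusted p = 0.502) in edgeR with treatment alone and 1.99 ± 0.27 (SE, adjusted p = 0.0142) with the replicate block. LDHi+lactate held 66.3%, 73.0%, 103% and 160.4% of the same-numbered control level, below it in replicates 1 and 2 and above it in replicates 3 and 4. Without LDHi replicate 3 the change in LDHi was -2.60 and the change with lactate was 2.45.

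Six3 (ENSMUSG00000038805, chromosome 17, 85613608 to 85629302) is a homeobox repressor that keeps Wnt signals out of the anterior neural plate. It had 71.3, 67.1, 122 and 64.0 CPM in LDHi+lactate replicates 1 to 4, 28.0, 39.6, 51.6 and 33.0 CPM in LDHi replicates 1 to 4, and 111, 81.6, 105 and 55.5 CPM in control replicates 1 to 4. The LDHi libraries, with a highest value of 51.6 CPM, did not overlap the control libraries, with a lowest of 55.5 CPM, or the LDHi+lactate libraries, with a lowest of 64.0 CPM. Six3 fell in LDHi by a log2 fold change of -1.22 ± 0.27 (SE, adjusted p = 0.0311) in edgeR. With lactate the log2 fold change over LDHi was 1.09 ± 0.27 (SE, adjusted p = 0.601) with treatment alone and 1.07 ± 0.17 (SE, adjusted p = 0.0248) with the block, which passed. LDHi+lactate held 64.1%, 82.2%, 116% and 115% of the same-numbered control level. As for Six6 and Rax, replicates 1 and 2 stayed below control and replicates 3 and 4 were above it, but the interaction of treatment and these 2 sets of replicates was not called for any of the 3 genes by edgeR.

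Otx2 (ENSMUSG00000021848, chromosome 14, 48657677 to 48673819), which marks fore- and midbrain and is later required in pigment epithelium and photoreceptors, had 130.1, 146, 229 and 205 CPM in LDHi+lactate replicates 1 to 4, 124, 108, 166 and 151 CPM in LDHi replicates 1 to 4, and 229.8, 176, 339 and 189 CPM in control replicates 1 to 4. The LDHi libraries did not overlap the control libraries, with 166 CPM as the highest in LDHi and 176 CPM as the lowest in control organoids. The log2 fold change of LDHi over control was -0.77 ± 0.23 (SE, adjusted p = 0.103) in edgeR with treatment alone and -0.75 ± 0.12 (SE, adjusted p = 0.00257) with the block, which passed. LDHi held 53.9%, 61.1%, 49.0% and 80.1% of the control level of the same number, and LDHi+lactate held 56.6%, 82.7%, 67.7% and 109%. The change with lactate over LDHi was 0.37 ± 0.23 (SE, adjusted p = 1) in edgeR and did not pass, and with the block it was 0.36 ± 0.12 (SE, adjusted p = 0.29).

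Lhx2 (ENSMUSG00000000247, chromosome 2, 38339281 to 38369733), a LIM homeobox gene whose loss in mice arrests the eye at the optic vesicle, had 409, 273, 268 and 237 CPM in LDHi+lactate replicates 1 to 4, 266, 254, 168 and 249 CPM in LDHi replicates 1 to 4, and 494, 416, 393 and 274 CPM in control replicates 1 to 4. LDHi and control libraries did not overlap, but the gap was narrow, with 266 CPM as the highest in LDHi and 274 CPM as the lowest in control organoids. The log2 fold change of LDHi over control was -0.75 ± 0.21 (SE, adjusted p = 0.0766) in edgeR with treatment alone and -0.73 ± 0.14 (SE, adjusted p = 0.00557) with the block. LDHi held 54.0%, 61.1%, 42.7% and 90.9% of the same-numbered control level. With lactate Lhx2 was above LDHi in 3 of 4 replicates, at a log2 fold change of 0.34 ± 0.21 (SE, adjusted p = 1) in edgeR, and it was below control in 4 of 4 replicates, at -0.41 ± 0.21 (SE, adjusted p = 0.578). Neither of these passed with or without the block.

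Pax6 (ENSMUSG00000027168, chromosome 2, 105668900 to 105697364), the paired homeobox gene of eye, forebrain and lens, had 252, 155, 233 and 238 CPM in LDHi+lactate replicates 1 to 4, 195, 196, 156 and 200.1 CPM in LDHi replicates 1 to 4, and 373, 242, 331 and 205 CPM in control replicates 1 to 4. Its LDHi libraries lay within 156 to 200.1 CPM, the narrowest spread of its 3 groups, and did not overlap control libraries, the lowest of which had 205 CPM. The log2 fold change of LDHi over control was -0.62 ± 0.19 (SE, adjusted p = 0.112) in edgeR, and -0.59 ± 0.17 (SE, adjusted p = 0.0328) with the block, which passed but was lost without replicate 1 (adjusted p = 0.173) or replicate 3 (adjusted p = 0.183). In replicate 4 the LDHi level was 97.7% of control, so the fall in that replicate was small. With lactate the log2 fold change over LDHi was 0.23 ± 0.19 (SE, adjusted p = 1) and the 95% interval ran from -0.19 to 0.65.

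Nr2e1 (ENSMUSG00000019803, chromosome 10, 42561963 to 42583632), which in mice keeps neural and retinal progenitors cycling, went the other way. It had 129, 67.2, 41.2 and 65.6 CPM in LDHi+lactate replicates 1 to 4, 119, 132, 66.1 and 77.8 CPM in LDHi replicates 1 to 4, and 98.0, 95.3, 39.6 and 45.7 CPM in control replicates 1 to 4. Each LDHi library was above the control library of the same number, at 121%, 138%, 167% and 170.3% of its level, although the groups overlapped because replicates 1 and 2 were higher than replicates 3 and 4 in the LDHi and control groups. The log2 fold change of LDHi over control was 0.50 ± 0.38 (SE, adjusted p = 0.594) in edgeR with treatment alone. With the block it was 0.56 ± 0.16 (SE, adjusted p = 0.0328) and passed, a call lost without replicate 3 (adjusted p = 0.154) or replicate 4 (adjusted p = 0.134). With lactate Nr2e1 was below LDHi in 3 of 4 replicates, at a log2 fold change of -0.38 ± 0.38 (SE, adjusted p = 1) in edgeR with treatment alone and -0.43 ± 0.16 (SE, adjusted p = 0.336) with the block.

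**Figure D2:**
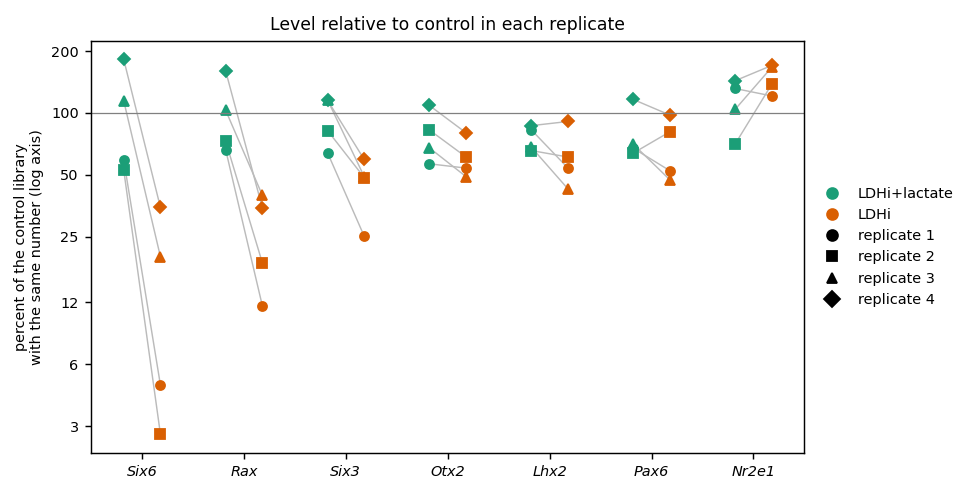
Level of each factor as a percent of the control library with the same number (log axis), for LDHi+lactate and LDHi, with a line joining the libraries of 1 replicate. LDHi points lie under 100% in 4 of 4 replicates for Six6, Rax, Six3, Otx2, Lhx2 and Pax6 and above it in 4 of 4 for Nr2e1, where LDHi held 121% to 170.3% of control.

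Over the 7 factors, LDHi against control gave 3 lower and 0 higher with treatment alone, when 2.18% of all genes tested were lower and 0.909% higher. With the block it gave 6 lower and 1 higher, when 10.1% were lower and 9.85% higher. In 5 of 7 factors (Six6, Six3, Otx2, Lhx2 and Pax6) every LDHi library was below every control library, and in 0 of 7 above, whereas over all genes 5.41% were separated as lower and 4.26% as higher. The median log2 fold change of the 7 was -0.77, against 0.01 over all genes. The 3 calls with treatment alone depended on single libraries. Without LDHi replicate 2 no factor was called, without LDHi replicate 1, LDHi replicate 4, control replicate 1 or control replicate 3 Six6 alone was called, and without control replicate 4 Lhx2 was called as well. In the fits with 1 library left out Six6 ranged from -4.03 to -3.12, Rax from -2.60 to -1.86 and Six3 from -1.40 to -1.10. With the block, Six6, Rax, Six3, Otx2 and Lhx2 were called whichever replicate was left out, with an adjusted p of at most 0.0138 for Six6, 0.00605 for Rax and 0.00946 for Six3.

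Other models gave other counts for LDHi against control. DESeq2 called 5 of the 7, each lower (Six6, Rax, Six3, Lhx2 and Otx2), when 4.39% of the genes it tested were lower and 2.45% higher. DESeq2 with the block called these 5 as lower and Nr2e1 as higher, when 10.6% were lower and 10.2% higher, and Pax6 had an adjusted p of 0.0596. With the label set as a term in place of the replicate number, edgeR called the same 5 as lower, when 4.70% of all genes were lower and 3.13% higher.

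LDHi+lactate against LDHi gave 3 higher and 0 lower of the 7 with the block, when 0.570% of all genes were higher and 0.0677% lower. With treatment alone edgeR called 0 of the 7, as it did for all genes (0% in each direction), although unadjusted p fell under 0.05 for 3 of the 7 and for 603 of all genes. DESeq2 called Six6, Rax and Six3 as higher, when 0.303% of its genes were higher and 0.0110% lower, and with the block it called the same 3, when 2.29% were higher and 0.872% lower. The LDHi+lactate libraries lay wholly above the LDHi libraries for these 3 factors and wholly below for 0, a separation seen in 1.51% of all genes as higher and 0.587% as lower. The blocked calls rested on the replicates used: without replicate 1 Six3 alone was called, without replicate 2 or replicate 3 none was, and without replicate 4 all 3 were.

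LDHi+lactate against control gave 0 of 7 calls in edgeR, with the block or without. With treatment alone 0% of all genes were called in each direction, unadjusted p fell under 0.05 for 0 of the 7 and for 1653 of all genes, and DESeq2 called 0 of the 7, when 0.660% of its genes were lower and 0.638% higher. With the block 3.87% of all genes were lower and 4.18% higher, while the 7 factors had 3 unadjusted p under 0.05 (Pax6, Lhx2 and Otx2). DESeq2 with the block called Lhx2 and Otx2 as lower, when 7.93% of its genes were lower and 7.42% higher. The 7 factors overlapped between the groups, against 2.11% of all genes separated as lower and 2.12% as higher. The log2 fold changes were -0.41 for Lhx2, -0.39 for Otx2, -0.39 for Pax6, -0.36 for Six6, -0.14 for Rax, -0.13 for Six3 and 0.12 for Nr2e1. The 95% interval of Six6 ran from -1.55 to 0.83 and that of Rax from -1.01 to 0.72, so a return to the control level was not measured more closely than that. The comparisons with LDHi share its 4 libraries, and those with control share the control libraries, so these changes are not independent of each other.

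**Figure D3:**
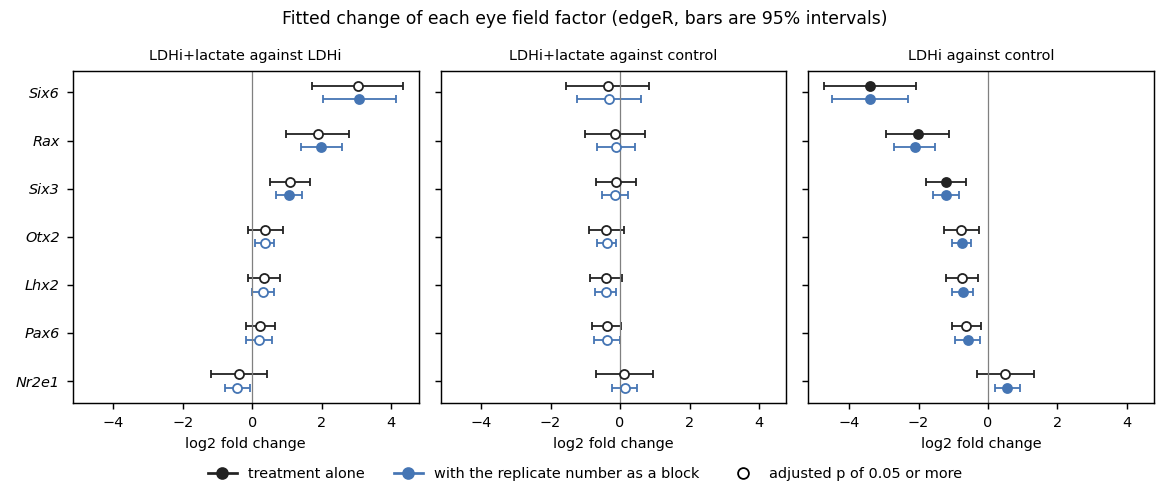
Log2 fold change of each factor with its 95% interval in 3 comparisons, from edgeR with treatment alone and with the replicate number as a block. Filled points passed an adjusted p of 0.05. Six6, Rax and Six3 move by -3.40, -2.03 and -1.22 in LDHi and by 3.04, 1.88 and 1.09 with lactate, and no factor passed for LDHi+lactate against control.

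Whether 2 factors changed by different amounts was asked within libraries, where scaling has no effect, from the log2 ratio of the 2 (prior count 2) and a two-sided exact permutation test over the 8 libraries. Of 21 pairs, 7 reached the smallest p that 4 against 4 libraries allow (0.0286) for LDHi against control, 9 for LDHi+lactate against LDHi and 0 for LDHi+lactate against control. After adjustment over the 21 pairs none passed 0.05, but passing would have needed most of the 21 pairs at the smallest p. The adjusted result therefore cannot decide whether any single pair differed. This test does not use the pairing of the replicate numbers. Within replicates, 15 of the 21 differences had 1 sign in 4 of 4 replicates for LDHi against control, 17 for LDHi+lactate against LDHi and 2 for LDHi+lactate against control. The smallest adjusted p was 0.0857 for LDHi against control, 0.0667 for LDHi+lactate against LDHi and 0.971 for LDHi+lactate against control.

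Six6 fell by 1.26 log2 units more than Rax in LDHi (standard error 0.43), by 2.14 more than Six3 (standard error 0.61) and by 2.61 more than Otx2 (standard error 0.71), with an exact p of 0.0286 for each (adjusted 0.0857). The differences from Six3 and Otx2 held their sign in 4 of 4 replicates. That from Rax was -0.0020 in replicate 4, where LDHi held 34.8% of control for Six6 and 34.7% for Rax, so its sign there rests on the prior count. With lactate Six6 returned by 1.19 log2 units more than Rax (standard error 0.34) and by 2.12 more than Six3 (standard error 0.47), and Rax by 0.93 more than Six3 (standard error 0.25), each with an exact p of 0.0286 (adjusted 0.0667). The factor that lost most in LDHi was thus the one that gained most with lactate, as measured against the same 4 LDHi libraries.

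Differences among Otx2, Lhx2 and Pax6 did not pass the test, which does not show that they responded alike. Otx2 and Lhx2 differed by 0.00358 log2 units in their response to the inhibitor (standard error 0.36, exact permutation p = 0.943), Otx2 and Pax6 by -0.15 (standard error 0.26, exact p = 0.657) and Lhx2 and Pax6 by -0.15 (standard error 0.13, exact p = 0.371). Six3 fell by 0.46 log2 units more than Otx2 (standard error 0.26) and 0.46 more than Lhx2 (standard error 0.35), with exact p of 0.171 and 0.257. Nr2e1 stood apart from Lhx2 by 1.30 log2 units (standard error 0.30, exact p = 0.0286) and from Six6 by 3.91 (standard error 0.87, exact p = 0.0286).

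**Figure D4:**
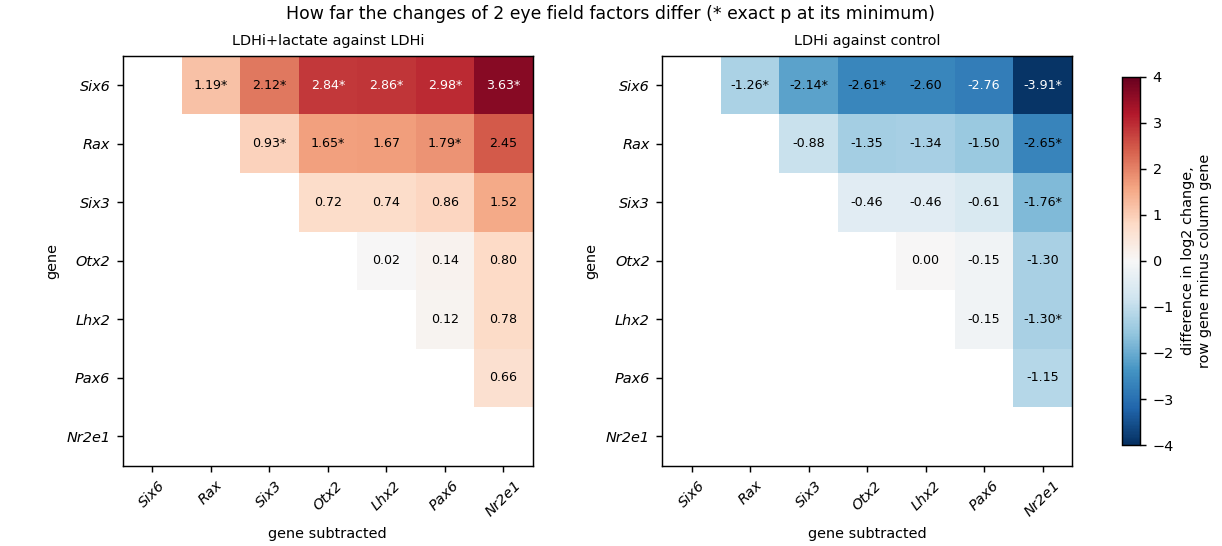
Difference between the log2 changes of the row gene and the column gene, from log2 ratios within libraries, for LDHi+lactate against LDHi and LDHi against control. Asterisks mark an exact permutation p of 0.0286, the smallest possible. None of the 21 pairs passed after adjustment, which needed most of them at that p. The Six6 row runs from -1.26 to -3.91 for LDHi against control, and Otx2, Lhx2 and Pax6 differ by 0.15 or less.

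Levels of different genes were set side by side per kilobase of exon, counting every annotated exon base of a gene (11694 for Pax6, 4393 for Lhx2). Which transcripts were expressed was not measured, so the order between genes rests on these lengths. On this scale Lhx2 had the highest mean in each group. It had 67.6 ± 17.4 CPM per kb in LDHi+lactate, 53.3 ± 10.2 in LDHi and 89.7 ± 20.8 in control organoids (SD, n = 4 each). Otx2 came next, at 42.1 ± 11.2, 32.5 ± 6.22 and 55.3 ± 17.5 CPM per kb in the same groups, and its libraries overlapped those of Lhx2 in each group. Rax was lowest, at 4.13 ± 1.20 CPM per kb in LDHi+lactate, 1.128 ± 0.750 in LDHi and 4.56 ± 1.78 in control organoids. In control organoids Pax6, Six6, Nr2e1 and Six3 followed Otx2 in that order, each overlapping the next. In LDHi organoids the order became Nr2e1, Pax6, Six3 and Six6, and none of these 4 overlapped its neighbour in that order.

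The 7 factors together summed to 187 ± 28.1 CPM per kb in LDHi+lactate, 139 ± 9.44 in LDHi and 234 ± 56.9 in control organoids. Of that sum Six6 made up 10.1% ± 3.14 in LDHi+lactate, 1.77% ± 1.46 in LDHi and 9.83% ± 4.49 in control organoids. Nr2e1 made up 10.8% ± 4.27 in LDHi+lactate, 18.9% ± 5.07 in LDHi and 8.06% ± 2.89 in control organoids. The Lhx2 share overlapped among the groups, at 36.0% ± 5.72 in LDHi+lactate, 38.2% ± 5.14 in LDHi and 38.6% ± 2.67 in control organoids. The LDHi sums, at 125 to 146 CPM per kb, did not overlap the control sums, at 155 to 287, and neither did the Nr2e1 shares, whereas the Six6 shares overlapped through LDHi replicate 3 and control replicate 4. These sums and shares rest on the same annotated exon lengths and were not tested.

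**Figure D5:**
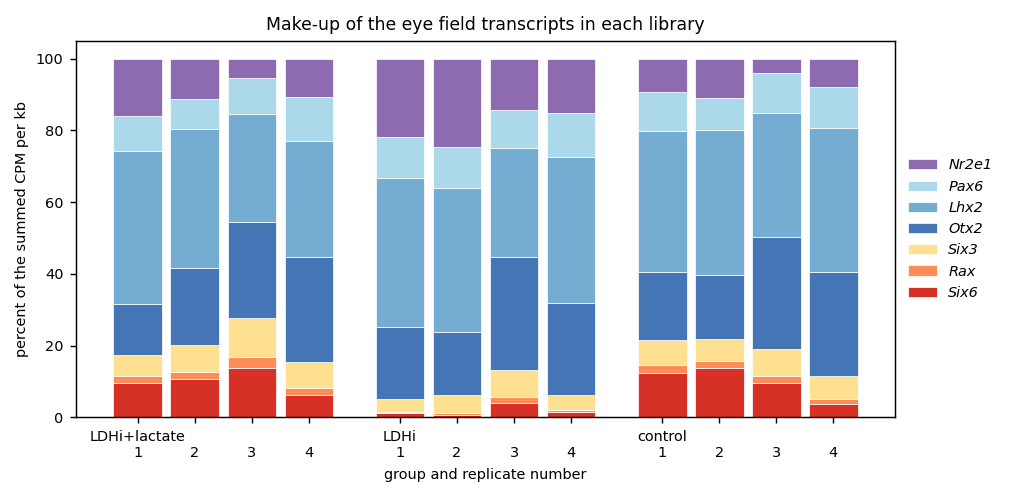
Share of each factor in the summed CPM per kb of the 7 factors, by library (stacked bars reach 100%). Six6 takes 0.613% to 3.91% in LDHi libraries, against 3.67% to 13.8% in control libraries, and Nr2e1 takes 14.2% to 24.5% in LDHi libraries, against 4.13% to 10.96% in control libraries.

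The genes whose log2 CPM followed each factor most closely over the 12 libraries were sought among 12909 genes averaging 1 or more on the log2 CPM scale. The libraries fall into 3 treatments and 4 numbers and are not independent, so the correlations are descriptions. Rax ran closest to Six3 (Pearson r = 0.97) and Six6 (0.96), then to Shisa2 (0.96), which encodes an inhibitor of Wnt and FGF receptor maturation in Xenopus. Six6 ran closest to Shisa2 (0.98) and Pax2 (0.97), a paired-box gene of the optic stalk. For Six3 the closest was Six3os1 (0.97), the transcript read from the opposite strand beside it. Lhx2 was led by Dennd1a (0.95), a gene that ends 51891 bases from Lhx2 on chromosome 2, and by the Wnt receptor gene Fzd6 (0.94), Otx2 by the nuclear receptor corepressor gene Nrip1 (0.98) and the microtubule-severing gene Fign (0.96), and Pax6 by Fndc3c1 and the zinc finger homeobox gene Zhx1 (0.94 each). Nr2e1 was followed by Gm11627, Pdzph1 and the neural progenitor gene Sox1 (0.95 each). No other factor of the 7 was among the 3 closest to Otx2, Lhx2, Pax6 or Nr2e1.

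Reads in exon bases that a factor shares with another transcript may have been counted for either or for neither. The sources used here do not say whether reads were counted by strand. Raxos1 shares 1604 exon bases with Rax, 27.4% of the Rax exon length, and held 152 reads over the 12 libraries, against 8166 for Rax. These totals do not show whether reads in the shared bases were left out of the Rax count. Six3os1 shares 106 bases with Six3 and held 46899 reads, more than the 29320 of Six3. It had 126, 113, 188 and 86.8 CPM in LDHi+lactate replicates 1 to 4, 54.4, 71.6, 72.7 and 50.6 CPM in LDHi replicates 1 to 4, and 169, 144, 149 and 79.1 CPM in control replicates 1 to 4, lower in each LDHi library than in the other libraries of its number. For Six6, Otx2, Pax6 and Lhx2 the overlapping genes held at most 2148 reads (4930447C04Rik at Six6, whose level did not separate by group at 3.24 to 5.98 CPM in LDHi and 1.74 to 7.08 CPM in control organoids).

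Partners that the factors work with in progenitors showed no common direction. Of 16 cofactor genes tested, 1 rose and 1 fell in LDHi against control in edgeR with treatment alone. With the block 2 rose and 1 fell, and the median log2 fold change was 0.03. Over all genes tested, 0.909% rose and 2.18% fell with treatment alone, and 9.85% rose and 10.1% fell with the block. Sox2, which acts with Otx2 on the Rax enhancer in Xenopus, rose, with log2 change 0.61 ± 0.12 (SE, adjusted p = 0.0227). It had 451, 463, 467 and 574 CPM in LDHi+lactate replicates 1 to 4, 568, 588, 602 and 682 CPM in LDHi replicates 1 to 4, and 373, 349.9, 378 and 502 CPM in control replicates 1 to 4, so each LDHi library was above the control library of its number. Ldb2, a partner of LIM homeodomain proteins, fell, with log2 change -1.81 ± 0.30 (SE, adjusted p = 0.0129). Its level was low, at 1.93 to 3.15 CPM in LDHi and 4.86 to 13.1 CPM in control organoids, with the highest in control replicate 4. Ldb1, named here after its values were seen, had 216 to 255 CPM in LDHi and 200.3 to 254 CPM in control organoids. Tle1, a corepressor bound by Six3, had a log2 fold change of 0.68 ± 0.31 (SE, adjusted p = 0.292) in edgeR and passed only with the block, at 0.65 ± 0.14 (SE, adjusted p = 0.0081). With lactate against LDHi, 0 of the 16 passed with treatment alone and 1, Sox2, was lower with the block, at -0.32 ± 0.05 (SE, adjusted p = 0.0248). All genes tested gave 0% without the block and 0.0677% lower with it.

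Among genes that act after the eye field factors, mostly in optic vesicle cells, calls in LDHi were mostly lower. Of 17 tested, 1 fell with treatment alone in edgeR, when 2.18% of all genes fell and 0.909% rose. With the block 8 fell and 1 rose, when 10.1% of all genes fell and 9.85% rose. The median log2 fold change of the 17 was -0.63. Mitf, the regulator of the pigment lineage, had 42.7, 23.9, 57.2 and 43.1 CPM in LDHi+lactate replicates 1 to 4, 14.6, 10.8, 17.2 and 21.7 CPM in LDHi replicates 1 to 4, and 83.1, 40.9, 90.0 and 73.3 CPM in control replicates 1 to 4. Its LDHi and control libraries did not overlap, and it fell, with log2 change -2.17 ± 0.31 (SE, adjusted p = 0.00907). Mab21l1 and Mab21l2, which eye morphogenesis requires, passed with the block, at -2.45 ± 0.31 (SE, adjusted p = 0.00072) and -1.97 ± 0.21 (SE, adjusted p = 0.00034). With lactate over LDHi, 3 of the 17 (Mitf, Mab21l1 and Mab21l2) rose with the block and 0 with treatment alone. Of all genes, 0.570% rose with the block and 0% with treatment alone. Mitf rose, with log2 change 1.35 ± 0.13 (SE, adjusted p = 0.0044) with the block and remained lower than control in LDHi+lactate, with log2 change -0.79 ± 0.12 (SE, adjusted p = 0.00879).

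Calls among close relatives of the factors ran in both directions, and their median log2 change in LDHi was -0.37. Of 22 listed paralogs, 19 were tested. In LDHi against control 1 rose and 2 fell with treatment alone, when 0.909% of all genes rose and 2.18% fell. With the block 3 rose and 5 fell, when 9.85% of all genes rose and 10.1% fell. Pax2 fell, with log2 change -2.16 ± 0.52 (SE, adjusted p = 0.0452) in edgeR and Pax5, a midbrain-hindbrain boundary gene, rose, with log2 change 1.84 ± 0.41 (SE, adjusted p = 0.0315). The orphan receptor gene Nr2f6 fell, with log2 change -0.37 ± 0.08 (SE, adjusted p = 0.0288). With lactate over LDHi, Pax2 rose, with log2 change 2.14 ± 0.38 (SE, adjusted p = 0.0376) and Nr2f6 rose with log2 change 0.30 ± 0.06 (SE, adjusted p = 0.0455) with the block, and 0 of the 19 passed without it. The share of all genes that rose with lactate was 0.570% with the block and 0% without it.

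Markers of other tissues moved in LDHi as well, and their part in the values above was not tested. Among all genes, 2.18% fell and 0.909% rose in LDHi with treatment alone, and 10.1% fell and 9.85% rose with the block. Pigment epithelium markers summed to 47.1 to 398 CPM in LDHi+lactate, 9.75 to 137 CPM in LDHi and 102 to 843 CPM in control organoids, and 1 of 6 tested fell with treatment alone in LDHi against control and 4 with the block, while the defining marker Rpe65 was at or near 0 throughout. Pluripotency markers summed to 551 to 1347 CPM in LDHi+lactate, 651 to 1190 CPM in LDHi and 311 to 699 CPM in control organoids, and 3 of 10 rose in LDHi with treatment alone (Esrrb, Zfp42 and Nanog) and 7 with the block. Mesenchyme markers summed to 137 to 181 CPM in LDHi+lactate, 109 to 168 CPM in LDHi and 174 to 810.3 CPM in control organoids, and 4 of 6 fell in LDHi with treatment alone.

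Pan-neural progenitor markers summed to 1207 to 1732 CPM in LDHi+lactate, 1494 to 2125 CPM in LDHi and 1263 to 1882 CPM in control organoids, and 1 of 7, Sox2, rose in LDHi with treatment alone and 2 with the block. Of the 8 midbrain and hindbrain markers 3 fell in LDHi (Hoxb1, Hoxb2 and Hoxa2), and with the block 4 fell and 2 rose (En1 and En2). Telencephalon markers had 0 of 8 called with treatment alone and 1 higher with the block, neuron markers 0 of 7 by either fit, hypothalamus markers 0 of 4 tested, and lens and surface ectoderm markers 0 of 4 tested and 1 lower with the block. These counts stand beside 0.909% of all genes higher and 2.18% lower with treatment alone, and 9.85% and 10.1% with the block.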

How the data were processed

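RNA-seq libraries of organoids were counted per gene by the authors, and each deposited file holds whole-number read counts for 1 library. The submitters' processing notes name cutadapt 1.13, STAR, HTSeq 0.6.1p1, DESeq2 1.14.1 and the mm10 build. The sources used here do not give the STAR version, annotation release or strand setting, so reads of overlapping genes cannot be told apart. Gene IDs were matched to GENCODE vM21 (54165 of 54232).

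Groups came from the labels. Genes passing filterByExpr were scaled by TMM and fitted over all 12 libraries with edgeR 4.0.16 in R 4.3.3 (quasi-likelihood test on treatment, Benjamini-Hochberg over 17721 genes, adjusted p under 0.05). log2 CPM used a prior count of 2. Same-numbered libraries deviated together (r 0.329 to 0.634 in 12 of 12 pairs, against -0.544 to 0.197 in 36 pairs of different numbers), so the replicate number was also fitted as a block. This pairing was read from the data, not stated by the labels or methods. P-values measure the spread between these libraries. Libraries within each group differed by more than sampling noise (18 pairs compared).

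Alternatives were DESeq2 1.42.0, a prior count of 0.5, at least 10 counts in every library or no filter, RLE factors or library totals, fits of the 2 groups compared, the label set as a term or each set alone, and each library left out. DESeq2 with the block was chosen after seeing the data. The edgeR fit and the ratio test were tested on simulated data. The 7 members and the gene lists were chosen with earlier results of these data known. The genes named were the members, up to 3 genes of each list with the smallest p in the comparison described, the 3 closest patterns of each member and genes overlapping a member. Other genes named to spell out a count were chosen after their values were seen. Promoter stretches are RefSeq's (GRCm38.p6).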

Additional observations from a re-analysis of the deposited data

Results flagged for a closer look

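Of 21 groups of 4 libraries (7 factors in 3 groups), 3 held a library farther from the rest than Dixon's 95% limit, when chance gives about 1 group in 20. Rax in LDHi replicate 3, at 13.2 CPM, stood above the other LDHi libraries by 0.945 of the range. Six3 in LDHi+lactate replicate 3, at 122 CPM, stood above the others by 0.874 of the range. Pax6 in LDHi replicate 3, at 156 CPM, stood below the others by 0.894 of the range. LDHi replicate 3 was thus high for Rax and low for Pax6.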

How the results depend on the processing

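For LDHi against control, 3 factors were called with treatment alone, 7 with the replicate block, 5 with DESeq2, 6 with DESeq2 and the replicate block, 5 with the label set as a term, 0 in replicates 1 and 2 alone and 0 in replicates 3 and 4 alone. The fits of 1 set alone had 2 libraries per group, and the share of all genes they called is not given. Leaving out 1 library gave 0 to 4, and leaving out 1 replicate of the blocked fit 5 to 7. For LDHi+lactate against LDHi, 0 were called with treatment alone, 3 with the replicate block, 3 with DESeq2 and 3 with DESeq2 and the block, and leaving out 1 replicate of the blocked fit gave 0 to 3. For LDHi+lactate against control, 2 were called by DESeq2 with the block, and leaving out 1 replicate of the blocked fit gave 0 to 1.

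Directions reversed only in LDHi+lactate against control, where edgeR called no factor with all 12 libraries. In replicates 3 and 4 alone the log2 fold changes were 0.24 for Rax, 0.20 for Six3 and 0.34 for Six6. With libraries left out, Nr2e1 ranged from -0.27 to 0.33 (blocked, -0.0058 to 0.33), Rax from -0.38 to 0.029 (blocked, -0.38 to 0.067) and Six3, blocked, from -0.27 to 0.042. The cause was not tested.

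A prior count of 0.5 left the ratio tests at 0 pairs called, where a call needed most pairs at the smallest p, and scaling has no effect on them. Leaving out libraries was not run for the ratio tests, since 4 against 3 libraries allow no p below 0.0571. Rax had the fewest reads, 115 in its lowest library, and Six6 the largest standard error for LDHi against control, at 0.61 (log2).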

Other observations

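Averaged over treatments, 3 of the 7 factors differed between replicates 3 and 4 and replicates 1 and 2 in edgeR. Nr2e1 was lower by a log2 difference of -0.95 (adjusted p = 0.00149), Lhx2 was lower at -0.40 (adjusted p = 0.0393) and Otx2 was higher at 0.49 (adjusted p = 0.0160). Of the 17721 genes tested, 4949 were called, so calls between these sets were common and not particular to the factors. The cell type label and the depth also differ between these sets, at 22174002 to 29919036 counts in replicates 3 and 4 and 37284585 to 48271386 counts in replicates 1 and 2, and the label, depth and experiment cannot be told apart.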
